A study of Mus musculus with 167 samples.

Results

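The BTG, KLF and ZFP36 genes described here are 8 genes whose products restrain growth or shorten the life of mRNAs: Btg1, Btg2, Klf2, Klf4, Klf6, Zfp36, Zfp36l1 and Zfp36l2. They are a named list out of the 38924 genes of a table of single-cell RNA levels, and all 8 were found in it. The list was selected on values from these same cells, namely the genes' levels, their shares of cells and their relation to Top2a and Mki67, so the comparisons below describe the genes and test nothing. The cells are lymphoid-primed multipotent progenitors (LMPPs), early blood progenitors with lymphoid and myeloid potential. They came from the bone marrow of wild-type female C57BL/6J mice of 14 months and of 4 months, and the study asked how ageing changes these progenitors. Marrow was depleted of mature lineage cells. Cells high for Flt3, without CD150 and carrying CD34, c-Kit and Sca-1 were sorted and captured singly on a Fluidigm C1 chip. Each value is in TPM, a level scaled for transcript length that adds up to 1000000 in each cell.

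BTG proteins bind the CCR4-NOT deadenylase, which removes poly(A) tails, and Btg1 and Btg2 are known as brakes on cell division in lymphocytes. Klf2, Klf4 and Klf6 encode zinc finger transcription factors of the Krüppel-like family, and Klf2 and Klf4 are known to hold lymphocytes in a resting state. The ZFP36 proteins bind AU-rich elements in mRNAs and bring them to the same deadenylase, and loss of Zfp36l1 and Zfp36l2 together is known to disturb lymphoid development in mice. Btg2, Klf2, Klf4, Klf6 and Zfp36 are also known as immediate early genes, which many cell types induce quickly and briefly after a stimulus.

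Of the 2 BTG genes, Btg2 was lower in the older cells. Btg1 was detected in nearly equal shares of older and younger cells (86.4% and 85.9%). Its mean level was slightly higher in the older cells, by less than the spread over cells. The Btg2 difference in mean log2(TPM+1), -3.33, was also smaller than the SD over 14-month cells, 3.63. It was larger than the SD over 4-month cells, 2.97. The upstream sequences of Btg2 and Btg1 are set side by side as a description, and a link between sequence and level was not tested. Each line gives the 250 bases before the RefSeq start of the gene in build GRCm38.p6, 5′ to 3′ on the gene's strand. Btg2 is read from the minus strand of chr1:134079156-134079405 and Btg1 from the plus strand of chr10:96616751-96617000. Capitals mark the letters TGACG, the core of a cAMP response element, on either strand (CGTCA when read on the other one).
Btg2: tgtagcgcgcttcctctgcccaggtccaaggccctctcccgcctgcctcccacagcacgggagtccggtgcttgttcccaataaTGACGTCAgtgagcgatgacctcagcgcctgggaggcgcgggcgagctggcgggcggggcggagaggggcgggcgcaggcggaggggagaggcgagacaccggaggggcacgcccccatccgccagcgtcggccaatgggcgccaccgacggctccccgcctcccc
Btg1: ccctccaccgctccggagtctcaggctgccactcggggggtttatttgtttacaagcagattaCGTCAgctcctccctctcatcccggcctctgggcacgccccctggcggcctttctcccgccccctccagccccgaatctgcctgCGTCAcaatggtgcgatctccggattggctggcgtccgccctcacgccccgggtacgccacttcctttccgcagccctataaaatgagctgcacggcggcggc
The Btg2 window holds the whole palindrome TGACGTCA once, 158 bases before the start, where the 2 copies of TGACG overlap. TGACGTCA was present in 1.55% of all 32851 RefSeq windows of that length and TGACG in 17.8%. The Btg1 window holds TGACG in 2 separate places and TATAAA once, 20 bases before the start, and 12.4% of all windows hold TATAAA. RefSeq windows were matched for 7 of the 8 genes. Among these, Klf2 and Klf4 hold 1 TGACG each, and Zfp36 holds the 1 match to a CArG box, the binding motif of serum response factor, which is found in 1.47% of all windows. Zfp36l1 also holds TATAAA once, 23 bases before its start. All motifs were searched on both strands, and a match is a run of letters rather than a shown binding site.

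Levels are given for the cells with at least 1000 genes at TPM 1 or more, the threshold for calling a gene detected. These were 66 of 84 columns of 14 months and 64 of 84 of 4 months. The labels tie no cell to a mouse and each age counts as 1 sample. There is no replicate check and no p-value, and intervals of shares are exact 95% binomial (Clopper-Pearson) intervals that cover counting error only. Column names split the 14-month cells into set 4 (29 of 45 columns kept) and set 5 (37 of 39 kept). The kept cells had medians of 3230 and 3376 genes detected and mitochondrial shares of TPM of 20.5% and 15.8%. The sources used here do not say what the set numbers stand for. The 4-month cells form 1 set, so age cannot be told apart from the set or from the capture. A 14-month cell had a median of 3281 genes detected and a 4-month cell 3974.5. The median mitochondrial share of TPM was 17.7% in 14-month and 12.4% in 4-month cells. TPM does not keep depth, which is unknown. Of 8385 pairs of kept cells, 5 pairs, formed by 9 cells of 14 months, had correlations across genes above 0.75, and values without those cells stand beside the results. At the edge of the gene filter, the kept 14-month cell with the fewest genes (1021) had 3 of the 8 genes detected and the left-out cell with the most (998) had 4. The same cells of 4 months (1066 and 916 genes) had 5 and 2.

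The genes of the sorting gate were present. Flt3 was detected in 92.4% of 14-month and 100% of 4-month cells and Cd34 in 87.9% and 89.1%. The Sca-1 gene Ly6a was found in 37.9% of 14-month and 39.1% of 4-month cells, and the c-Kit gene in 53.0% and 67.2%. Slamf1 (CD150), Pax5, Cd3e, Gata1 and Ly6g were at 0 in every kept cell. Of 8 neutrophil and monocyte markers, 3 were at 0 in all 14-month cells (Ngp, Ltf, Ly6g). At 4 months 4 of them were at 0 in all cells (these and Ly6c2). The summed TPM of the 8 markers per cell had a median of 48.3 at 14 months and 121 at 4 months. Its highest value was 11664 at 14 months and 1447 at 4 months. Itgam, which encodes CD11b, was found in 25.8% of 14-month and 68.8% of 4-month cells. The 5 B cell markers summed to at most 971 TPM in a 14-month cell and 1378 TPM in a 4-month cell. The 4 erythroid markers summed to at most 2232 and 197 TPM. Markers of T and NK cells (5 genes) summed to at most 36.9 TPM in a 14-month cell and 236 TPM in a 4-month cell. For 3 megakaryocyte markers the highest sums were 634 and 316 TPM, and for 3 macrophage markers 428 and 536 TPM. The part of these genes and of the mitochondrial share in the differences below was not tested.

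The most abundant of the 8 genes at 14 months was Zfp36l2, with a mean log2(TPM+1) of 6.52, followed by Btg1 at 6.25, Zfp36 at 5.98 and Btg2 at 4.93. Klf6 (3.19) and Klf4 (2.63) were intermediate, and Klf2 (0.89) and Zfp36l1 (0.69) were rare. At 4 months Zfp36 was first at 8.65 and Btg2 second at 8.26, ahead of Zfp36l2 at 7.07 and Btg1 at 5.71, while the lower 4 kept the same order. In either age, neighbours in the order differed by less than the SD over cells of each, which ran from 1.64 to 3.63 at 14 months and from 2.23 to 3.28 at 4 months.

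A 14-month cell had fewer of the genes detected. The median was 5 of the 8 genes per cell at 14 months (range 1 to 8) and 6.5 at 4 months (range 0 to 8). At least 7 were found in 11 of 66 cells of 14 months (16.7%) and 32 of 64 cells of 4 months (50.0%), and at most 3 in 14 cells and 3 cells. The ranges overlap fully, and the number of genes detected per cell was also lower at 14 months.

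**Figure D1:**
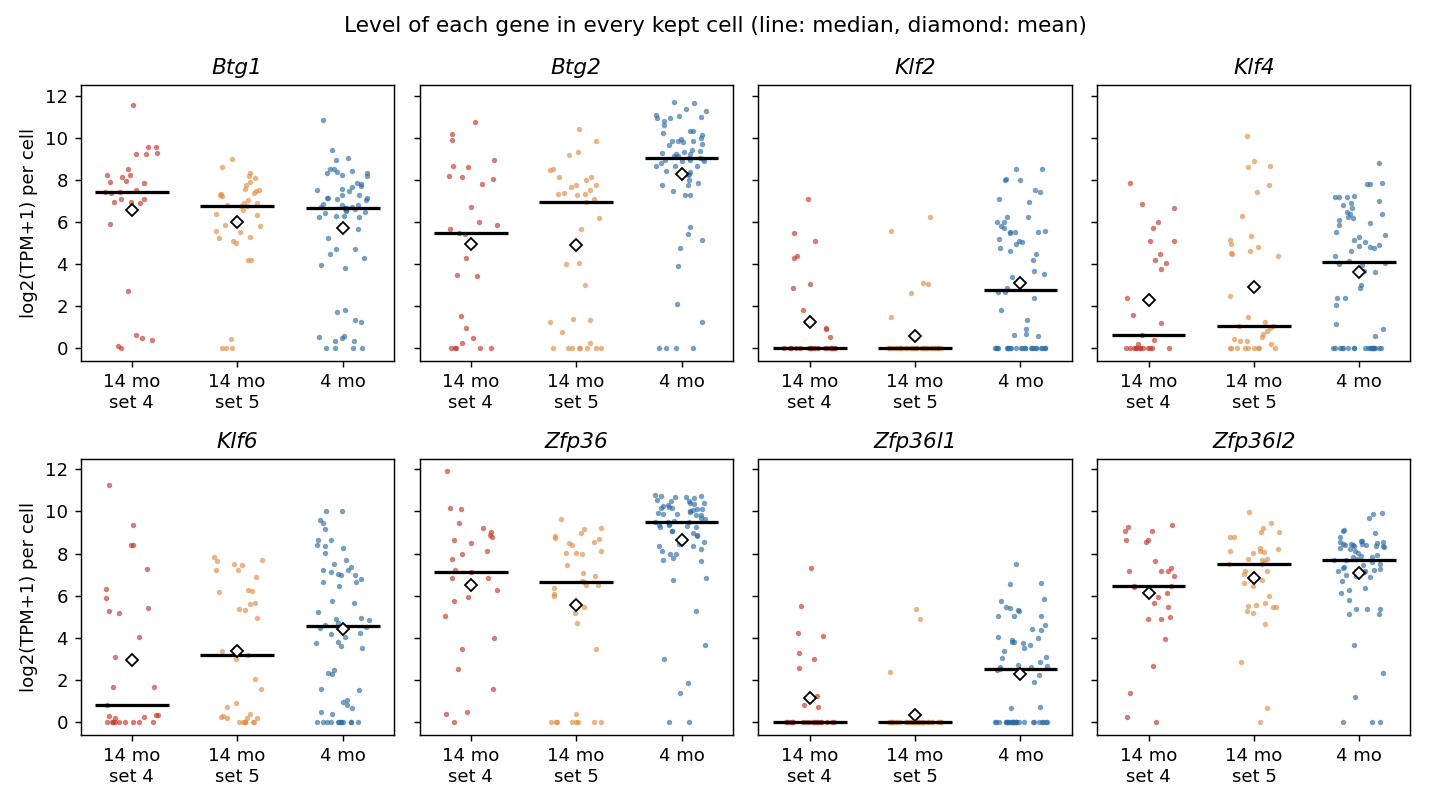
Level of each of the 8 genes as log2(TPM+1) in every kept cell of 14 months (set 4, n = 29, and set 5, n = 37) and of 4 months (n = 64). Each point is a cell, the line is the median and the diamond the mean. Btg2 and Zfp36 form a high band in 4-month cells that most 14-month cells lie under, while Btg1 and Zfp36l2 cover much the same range in all groups.

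Btg2, chromosome 1 from 134075170 to 134079120 (GENCODE, minus strand), had the greatest deficit of the 8 at 14 months. Its TPM ran from 0 to 1731 in 14-month cells with a median of 53.6, and from 0 to 3289 in 4-month cells with a median of 522. The ranges overlap, but 7 of 66 cells of 14 months (10.6%) lay above the 4-month median, and 48 lay under the 4-month lower quartile of 228 TPM. In the 14-month sets the median was 42.9 TPM in set 4 and 120.3 TPM in set 5. The mean log2(TPM+1) was 4.93 ± 3.63 at 14 months and 8.26 ± 2.97 at 4 months (SD over cells).

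Btg1, chromosome 10 from 96617006 to 96622809, did not share this deficit. Its TPM ran from 0 to 2982 with a median of 133 at 14 months, and from 0 to 1819 with a median of 101 at 4 months. The groups overlap almost wholly: 42 of 66 cells of 14 months (63.6%) lay above the 4-month median. It was detected in 57 of 66 cells at 14 months, 86.4% with an interval of 75.7 to 93.6%. At 4 months it was detected in 55 of 64, 85.9% with an interval of 75.0 to 93.4%. The mean TPM of set 4 was 333, or 238 without its highest cell, that of set 5 was 128, and that of 4-month cells was 162.

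Among the ZFP36 genes, Zfp36 (chromosome 7, 28376784 to 28380253), which encodes tristetraprolin, had TPM from 0 to 3841 with a median of 113 at 14 months, and from 0 to 1782 with a median of 720.0 at 4 months. Only 4 of 66 cells of 14 months (6.06%) lay above the 4-month median, 3 of them in set 4. Zfp36l1 (chromosome 12, 80107754 to 80113013) had a median of 0 and a highest value of 157 TPM at 14 months, and a median of 4.64 and a highest value of 182 TPM at 4 months. It was detected in 8 of 29 cells of set 4 (27.6%), 3 of 37 cells of set 5 (8.11%) and 35 of 64 cells of 4 months (54.7%). Its mean was 5.02 TPM at 14 months, or 2.68 without the highest cell, and 15.2 TPM at 4 months, or 12.6 without it. Zfp36l2 (chromosome 17, 84183931 to 84187947) was nearly always found, in 93.9% and 95.3% of cells, with medians of 136 TPM (range 0 to 991) and 206 TPM (range 0 to 968). Its median was 85.9 TPM in set 4 and 179 TPM in set 5, so set 5 lay nearer to the 4-month cells. The annotation has opposite-strand genes across Zfp36, Zfp36l1 and Zfp36l2. The sources used here do not say that the values separate strands, so reads of these partners cannot be told apart from theirs. The partner of Zfp36l1, Gm26669, was itself detected in 10 cells of 14 months and 12 cells of 4 months.

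Klf2 (chromosome 8, 72319033 to 72321656) had a median of 0 and a highest value of 135 TPM at 14 months, and a median of 5.84 and a highest value of 367 TPM at 4 months. It was found in 14 of 66 cells at 14 months, a share of 21.2% (12.1 to 33.0%), and in 37 of 64 cells at 4 months, a share of 57.8% (44.8 to 70.1%). Klf6 (chromosome 13, 5861482 to 5870394) had medians of 2.63 and 22.5 TPM, with highest values of 2466 and 1052 TPM. Its 14-month mean of 92.3 TPM became 55.8 TPM without the highest cell, against 4-month means of 131 and 116 TPM with and without it. Klf4 (chromosome 4, 55527143 to 55532466), known as a reprogramming factor and a driver of monocyte fate, had medians of 1.06 and 16.2 TPM, with highest values of 1079 and 445 TPM. Its mean TPM was slightly higher at 14 months, 56.6 against 50.0, and lower without the highest cell of each age, 40.9 against 43.7. For Klf4 and Klf6 the values overlap over most of their range: 24 of 66 and 26 of 66 cells of 14 months lay above the 4-month median.

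**Figure D2:**
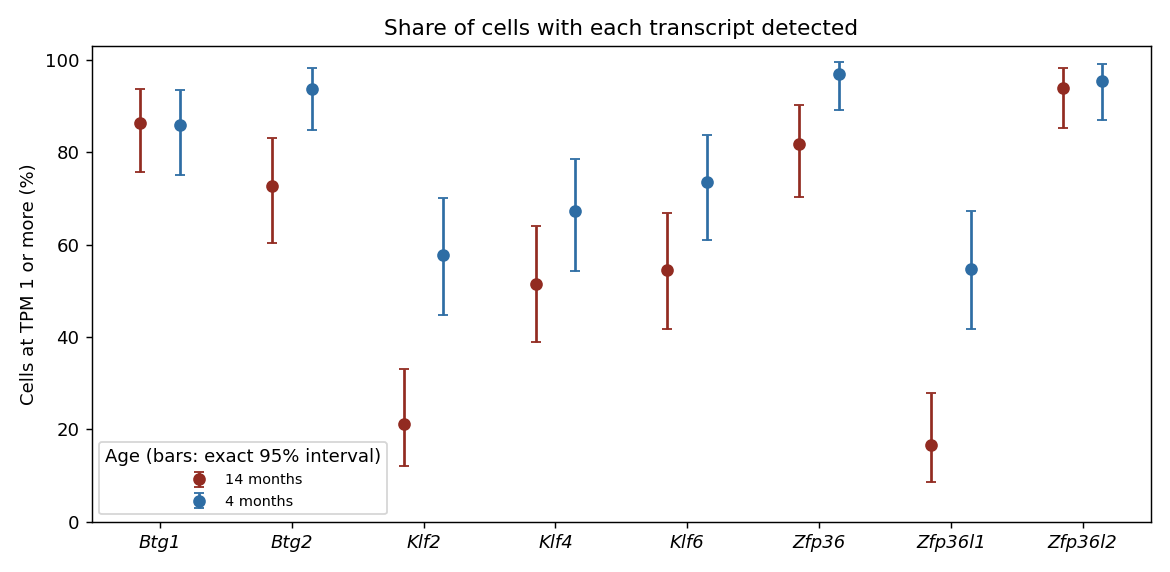
Share of kept cells with each gene at TPM 1 or more, in percent, at 14 months (n = 66 cells) and 4 months (n = 64 cells). Bars are exact 95% binomial intervals. The intervals of Btg2, Klf2 and Zfp36l1 do not overlap between the ages, those of Zfp36 overlap narrowly, and the shares of Btg1 and Zfp36l2 are nearly equal.

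Shares of cells gave 3 genes whose intervals did not overlap between the ages, all lower at 14 months: Btg2 (72.7% against 93.8%), Klf2 (21.2% against 57.8%) and Zfp36l1 (16.7% against 54.7%). Such a lower share at 14 months was found for 8.16% of all 9224 measured genes, those detected in at least 10% of cells as the mean of the ages, and a higher one for 0.0867%. The share for Zfp36 was 81.8% at 14 months, with bounds of 70.4 and 90.2%, and 96.9% at 4 months, with bounds of 89.2 and 99.6%. Klf6 was found in 54.5% and 73.4%, and Klf4 in 51.5% and 67.2%.

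The difference between the ages is 14 months minus 4 months in mean log2(TPM+1), a scale that understates changes of low genes. The median measured gene was at -0.36, so values are given relative to it. Of the 8 genes, all measured, 4 lay at least 2-fold (1 on the log2 scale) under the median gene: Btg2 at -2.97, Zfp36 at -2.31, Klf2 at -1.87 and Zfp36l1 at -1.24. Over all measured genes 5.08% lay that low. None of the 8 lay 2-fold above, as 3.37% of all genes did. As the list was selected on these values, nothing about it is read from that count. Without the 9 similar cells the same 4 were at -2.59, -2.15, -1.83 and -1.15. From the lowest of 9224, Btg2 ranked 16, Zfp36 34, Klf2 70 and Zfp36l1 256. Klf6 was at -0.86, Klf4 at -0.63, Zfp36l2 at -0.19 and Btg1 at 0.89. The median of the 8 was -1.05, beside 0 for all measured genes by construction.

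Within the 14-month cells, the sets gave Btg2 -2.88 in set 4 and -3.01 in set 5, Zfp36 -1.73 and -2.74, Klf2 -1.43 and -2.18, and Zfp36l1 -0.73 and -1.61. Klf6 was at -1.03 and -0.69, Klf4 at -0.91 and -0.38, and Btg1 at 1.27 and 0.63. Zfp36l2 was at -0.51 and 0.088, on opposite sides of the median gene. At least 2-fold lower were 4 of the 8 in each set, beside 6.75% of all genes in set 4 and 6.56% in set 5. Btg1 was 2-fold higher in set 4, beside 4.59% of all genes, and none of the 8 in set 5, beside 6.63%. Both sets share the 4-month cells. Set against each other, set 5 minus set 4, Zfp36 was at -1.02 relative to the median gene, the other 7 lay between -0.87 and 0.60. Of all genes 4.47% were at least 2-fold lower in set 5 than in set 4 and 6.9% higher. Btg2 differed least between the sets, at -0.12.

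**Figure D3:**
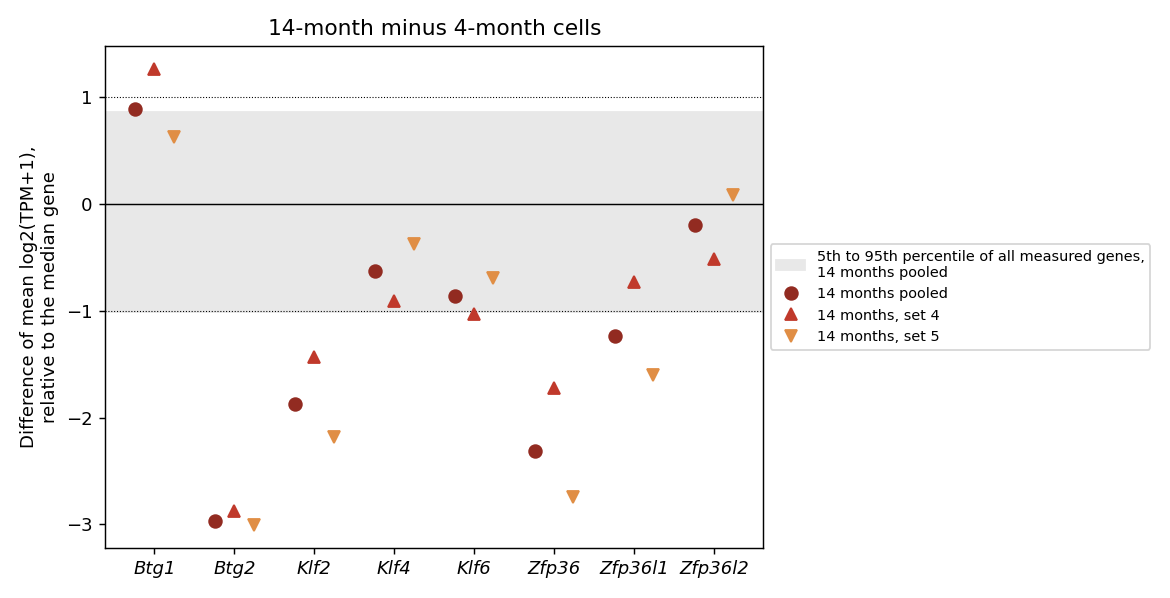
Difference between 14-month and 4-month cells in mean log2(TPM+1), relative to the median measured gene, for each of the 8 genes. Circles are all 14-month cells, triangles set 4 (up) and set 5 (down), the grey band is the 5th to 95th percentile of all measured genes for the pooled difference, and dotted lines mark 2-fold. The pooled values of Btg2, Zfp36, Klf2 and Zfp36l1 lie under the band, and that of Btg1 lies just above it.

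Close relatives of the 8 genes were compared in the same way. Of 3 measured BTG/TOB relatives none was past 2-fold: Tob1 was at -0.74, Tob2 at -0.70 and Btg3 at -0.0046, while Btg4 was at 0 in every kept cell. Of 6 measured KLF relatives, Klf10, known as an early response gene to TGF-beta, was at -1.38 (59.1% of 14-month and 84.4% of 4-month cells) and Klf3, a repressor, at 1.03 (19.7% and 10.9% of cells). Klf13 was at -0.37 and Klf9 at 0.51, and the list's median was -0.03. Of 8 measured ARE-binding and mRNA decay relatives, the KH-domain protein gene Khsrp was at -1.29, Tia1 at -0.55, and the Roquin genes Rc3h1 and Rc3h2 at 0.22 and 0.72, with a median of -0.10.

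The deadenylase that BTG and ZFP36 proteins recruit showed no common direction. Of 13 measured genes of the CCR4-NOT and poly(A) tail list, 5 lay under and 8 above the median gene, with a median of 0.17. The ubiquitin ligase Cnot4 (-1.14) and the catalytic subunit Cnot6 (-0.78) were lowest, and the catalytic subunit Cnot8 (1.12) and Cnot9 (0.83) highest. In the p38-MK2 axis, whose kinases phosphorylate tristetraprolin and whose 14-3-3 proteins bind it, 6 of 9 genes lay under the median gene and the list's median was -0.44. The 14-3-3 genes Ywhag (-1.04) and Ywhaq (-0.76) were lowest, and Ywhae (0.32) and the kinase Mapkapk2 (0.44) highest.

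Known target mRNAs of the ZFP36 proteins and genes that Klf2 is known to regulate lay on both sides of the median gene. Of 12 measured ARE target mRNAs, 8 lay under the median gene and 3 at least 2-fold so: Ier3 (-2.87), the chemokine gene Cxcl2 (-1.31) and Vegfa. Ccnd1 (0.39) and the cyclin gene Ccne2 (0.67) were highest, and the median was -0.36. Among the KLF2 targets, the CDK inhibitor genes Cdkn1a and Cdkn1b were at 0.20 and -0.35 and Itgb7, an integrin gene, at 0.04. S1pr1 was found in 1 of 66 and 5 of 64 cells and was not measured.

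Immediate early genes other than the 8, a list that shares Ier3 with the ARE targets, were lower together with Btg2 and Zfp36. Of 18 measured, 17 lay under the median gene and 11 at least 2-fold so, against 5.08% of all genes, with a median of -1.24. This list too was chosen with earlier results of these data known, so its count is a description only. Ier3 (-2.87) and the stress factor Atf3 (-2.70) were lowest, and Fosl2 (-0.02) and Egr2 (0.30) highest. What these genes contribute to the differences of Btg2, Zfp36 and Klf2 was not tested.

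Top2a, the topoisomerase of dividing cells, and Mki67, the gene of the Ki-67 protein, served to split the cells. Between the ages, 17 of 18 genes of a G2/M list lay above the median gene at 14 months, with a median of 0.67, and 11 of 15 S phase genes, with a median of 0.48. Before the median gene was subtracted, 13 of 18 and 8 of 15 had a higher mean at 14 months. For G2/M genes the counts were 15 of 18 in set 4 (median 0.46) and 16 of 18 in set 5 (0.85). For S phase genes they were 8 of 15 in set 4 (median 0.11) and 13 of 15 in set 5 (0.51). Top2a and Mki67 were both at TPM 1 or more in 31 of 66 cells of 14 months and 24 of 64 cells of 4 months, neither in 13 and 11 cells, and 1 of them in 22 and 29 cells. Cells with both had more genes detected, a median of 3887 against 2575 in cells with neither at 14 months and 4998 against 3494 at 4 months. Values for cells with both minus cells with neither are therefore relative to the median gene, which was at 0.51 at 14 months and 0.76 at 4 months. As a measure of the split, all 18 genes of the G2/M list, which includes Top2a and Mki67, lay at least 2-fold higher in the cells with both, in each age.

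The 8 genes were not uniformly lower in cells with both markers. Relative to the median gene their median was -0.50 at 14 months and -0.28 at 4 months, with 6 and 7 of the 8 under it. At least 2-fold lower in cells with both were Btg2 (-1.25) and Klf6 (-1.12) at 14 months, where 8.39% of all genes were as low, and Klf6 (-1.56), Btg1 (-1.39) and Klf4 (-1.21) at 4 months, where 12.9% were. None of the 8 was 2-fold higher, as 15.8% and 20.1% of all genes were. The relation to both markers was among the values that selected the list, so nothing is read from these counts. Without the 9 similar cells, Btg2 was at -0.74 and Klf6 at -0.95 at 14 months, neither past 2-fold, and Zfp36 was at -1.25 in place of -0.57.

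Klf6 was past 2-fold lower in both ages with all kept cells, but its direction at 14 months turned to 0.14 in cells with 2000 or more genes and to 1.44 with medians over cells. Its median at 14 months was higher in cells with both markers, 7.6 TPM against 2.17 TPM in cells with neither. At 4 months the medians were 20.4 TPM in cells with both and 48.9 TPM in cells with neither. At 14 months its mean log2(TPM+1) was 3.41 ± 3.12 in cells with both markers and 4.01 ± 4.09 in cells with neither, and at 4 months 4.22 ± 2.37 and 5.01 ± 3.38 (SD over cells). These differences are smaller than the SD over cells, and its share of cells hardly differed, 58.1% against 61.5% at 14 months and 83.3% against 81.8% at 4 months.

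The values of Btg2 went different ways between sets and ages. At 14 months its TPM ran from 0 to 402 with a median of 50.0 in the 31 cells with both markers, and from 0 to 1731 with a median of 61.8 in the 13 cells with neither. At 4 months it was found in 24 of 24 cells with both, with a median of 476 TPM, and in 9 of 11 cells with neither, with a median of 341 TPM. Its relative difference was -1.25 at 14 months and 0.40 at 4 months, and inside the 14-month cells 0.63 in set 4 (12 and 8 cells) and -3.61 in set 5 (19 and 5 cells). The 4-month value was -2.08 in the few cells matched on genes detected, and lay under the median gene in 3 of 13 alternatives. In set 4, 12.9% of all genes were 2-fold lower and 19.3% higher, and in set 5 18.4% and 19.6%. Of the 31 double-positive cells of 14 months, 77.4% had Btg2 detected, as did 76.9% of the double-negative ones.

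At 14 months Klf2 was found in 10 of 31 cells with both markers, 32.3% (16.7 to 51.4%), and 1 of 13 cells with neither, 7.69% (0.195 to 36.0%). At 4 months it was found in 19 of 24 cells with both, 79.2% (57.8 to 92.9%), and 5 of 11 cells with neither, 45.5% (16.7 to 76.6%). The intervals overlap in each age, and cells with both also had more genes detected. Zfp36 was found in 87.1% of cells with both and 84.6% of cells with neither at 14 months, and in every cell of both classes at 4 months. Zfp36l2 was found in 30 of 31 and 11 of 13 cells at 14 months, and in 24 of 24 and 10 of 11 cells at 4 months. Zfp36l1 was at 19.4% and 7.69% of cells at 14 months and at 70.8% and 63.6% at 4 months, with overlapping intervals.

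**Figure D4:**
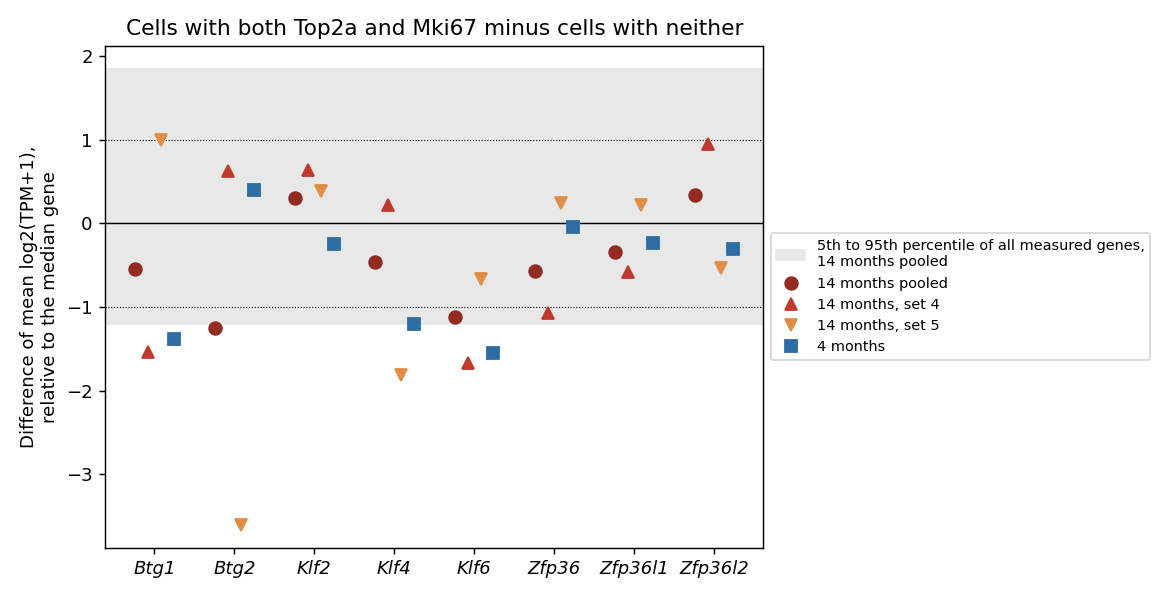
Difference between cells with both Top2a and Mki67 detected and cells with neither in mean log2(TPM+1), relative to the median measured gene, for 14-month cells pooled (circles), their set 4 and set 5 (triangles) and 4-month cells (squares). The grey band is the 5th to 95th percentile of all measured genes at 14 months. Signs differ between sets or ages for most of the 8 genes, and Klf6 lies under the median gene in each.

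The differences between the ages were also taken inside each class of division, relative to the median gene of that comparison. In cells with both markers Btg2 was at -2.89, Zfp36 at -1.96, Klf2 at -1.81 and Zfp36l1 at -1.69, where 10.9% of all genes were at least 2-fold lower. In cells with neither they were at -1.26, -1.45, -2.38 and -1.59, where 15.3% were. Btg1 was at 0.79 in cells with both and at -0.07 in cells with neither. In the cells with 1 of the markers Btg2 was at -3.76, Zfp36 at -3.27, Klf2 at -1.75 and Zfp36l1 at -0.70, where 10.4% were. Klf4 was also past 2-fold in cells with neither, at -1.38, and Klf6 in cells with 1 marker, at -1.63. In all, 4 of the 8 were 2-fold lower in cells with both, 5 in cells with neither and 4 in cells with 1. Btg1 was at 1.59 in the cells with 1 marker. At least 2-fold higher were 7.29% of all genes in cells with both, 12.0% in cells with neither and 9.51% in cells with 1. Of the S phase genes, 14 of 15 lay under the median gene in cells with both, with a median of -0.65. In cells with neither 10 of 15 lay above it, and in cells with 1 marker 12 of 15.

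Over cells of 1 set the 8 genes were weakly related. Spearman's rho was taken inside set 4 (29 cells), set 5 (37 cells) and the 4-month cells (64 cells) and averaged. All 28 pairs had a positive mean, with a median of 0.15, and 16 were positive in all 3. In set 5, Klf2 was detected in 6 and Zfp36l1 in 3 of 37 cells, so most cells are tied at 0 in their values there. The points share the cell's depth and fixed total, and the mean rho with the number of genes detected ran from -0.10 (Btg1) to 0.31 (Klf2). Zfp36 took part in the 4 pairs above 0.3: with Btg2 (0.41), Klf6 (0.36), Klf2 (0.34) and Klf4 (0.33). Zfp36 and Btg2 were at 0.71 in set 4, 0.13 in set 5 and 0.40 at 4 months, so this value varied widely between the sets. Btg1 and Btg2 were at 0.40, -0.26 and 0.12.

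**Figure D5:**
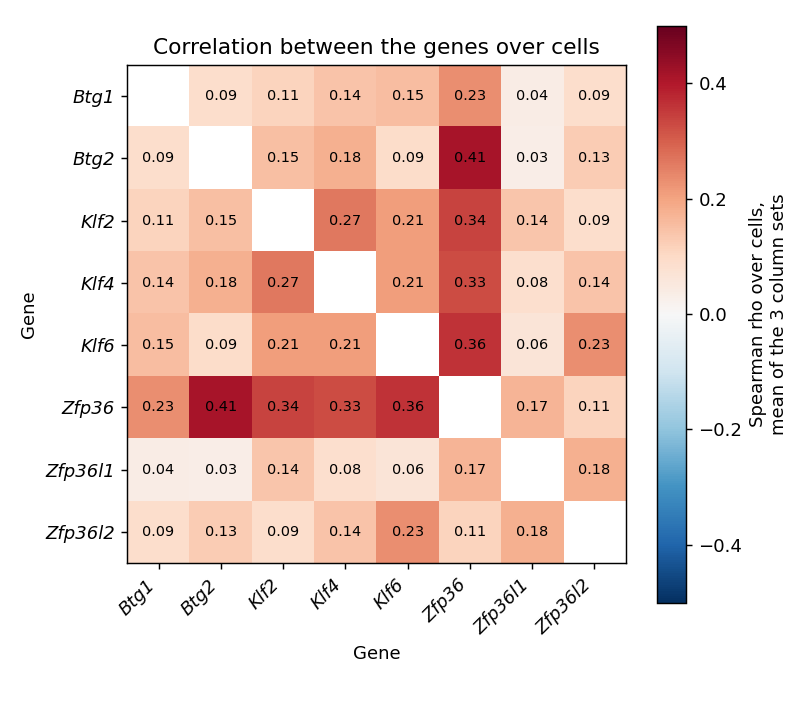
Spearman's rho over cells between each pair of the 8 genes, as the mean of the values in set 4, set 5 and the 4-month cells. The column of Zfp36 holds the 4 highest values, up to 0.41 with Btg2, and the lowest are those of Zfp36l1 with Btg2 (0.03) and Btg1 (0.04).

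The gene with the pattern over cells most like that of each of the 8 was sought among 4238 or 4239 other protein-coding genes detected in at least 20% of the cells of each set. The highest value was that of Zfp36 with Fos, an AP-1 subunit, at a mean rho of 0.58 (0.45 in set 4, 0.73 in set 5 and 0.57 at 4 months). The ferritin gene Fth1 (0.51) and the ubiquitin gene Ubb (0.49) came next for Zfp36. Klf4 was most like Diaph1 (0.48), Fos (0.47) and Hp1bp3 (0.47), and Klf2 most like Zfpl1 (0.45), Wbp2 (0.44) and Notch1 (0.44). Btg2 was most like Zfp36 (0.41), Rabgef1 (0.37) and the nuclear receptor gene Nr4a1 (0.36, but 0.01 in set 5). For Zfp36l2, Zfp36l1, Klf6 and Btg1 the highest were Hmgb1 (0.41), Srpk2 (0.41), Ctla2b (0.38) and Clk1 (0.38), each the highest of all candidates in few cells and given only as a description.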

How the data were processed

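The tools named in the submitters' processing notes are RSEM 1.2.12 and Bowtie2 2.2.0, with build mm10. The sources used here do not give roles, annotation or filters. The authors deposited TPM for 38924 genes in 168 columns, 1 per cell, and 167 cells are labelled. There are 84 columns against 83 labels at 14 months, and columns were assigned by age only. Symbols were matched for 37607 gene identifiers. From the TPM, cells with at least 1000 genes at TPM 1 or more were kept. Differences are of mean log2(TPM+1), pseudocount 1, minus the median over the 9224 measured genes. On simulated data this calculation was only checked against the same formula written out again, which tests no result given here. No test was run, as each age is 1 sample of cells.

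All 8 genes are named, with the 2 highest and 2 lowest of each other list, and the 3 genes most like each of the 8 over cells (for 4 of them only the first is printed). Vegfa, S1pr1, Btg4, Gm26669 and gate and lineage markers are named beyond that rule, after their values were seen. The genes, lists and rules were chosen with earlier results of these data known. Coordinates are from GENCODE on the same build and sequences from RefSeq on GRCm38.p6. Python 3.11.15, numpy 2.4.6, pandas 2.3.3 and scipy 1.17.1 were used. Alternatives changed the pseudocount, filters, normalization, mitochondrial share, matching, sets and classes. Some genes of the marker and KLF2 target lists are not reported here.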

Additional observations from a re-analysis of the deposited data

Results flagged for a closer look

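Zfp36l2 had relative differences between the ages of opposite sign in the 14-month sets, -0.51 in set 4 and 0.088 in set 5, which share the 4-month cells. For Klf2, the difference by marker class had opposite signs in the ages only after the median gene was subtracted. Its mean log2(TPM+1) was higher in cells with both markers in each age, 1.23 against 0.41 in cells with neither at 14 months and 3.59 against 3.07 at 4 months. Relative to the median gene, cells with both Top2a and Mki67 minus cells with neither were at 0.64 in set 4, 0.39 in set 5 and -0.25 at 4 months. Among cells with neither, Klf2 was detected in 1 of 8 in set 4 and 0 of 5 in set 5. Among cells with both it was detected in 5 of 12 and 5 of 19, so the values of the sets rest on a floor. The 4-month value of Klf2 was 0.37 with pseudocount 0.1 and 3.60 with medians over cells. None of these differences between groups was tested.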

How the results depend on the processing

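In 16 alternatives to the difference between the ages, Btg2, Zfp36, Klf2, Klf4, Klf6 and Zfp36l1 stayed under the median gene. Btg2 and Zfp36 were at least 2-fold lower in 16 (-3.31 to -1.26 and -2.86 to -1.45), Klf2 in 15 and Zfp36l1 in 12. Btg1 was above the median gene except in cells with neither Top2a nor Mki67 (-0.07), and Zfp36l2 was under it in 12. The median of the 8, -1.05, was -1.64 with pseudocount 0.1, -2.68 with medians over cells and -0.98 without the similar cells. In the main setting 4 genes were 2-fold lower, with a range from 2 (pseudocount 10) to 6 (medians over cells). Medians over cells are not like for like, here or by marker class, because the median gene then takes nothing off. The 14-month medians of Klf2 and Zfp36l1 were 0, so their values in that setting rest on the floor. Cells with both markers and with neither, the similar cells, and the sets in the comparison by marker class were alternatives chosen after seeing the data.

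The comparison by marker class changed more. The median of the 8 was 0.19 with medians over cells at 14 months, against -0.50, and -0.96 with Top2a alone and 0.40 with Mki67 alone at 4 months, against -0.28. Among values past 2-fold at 14 months, Klf6 changed sign to 0.14 in cells with 2000 or more genes and to 1.44 with medians over cells. Btg2 changed sign to 0.63 in set 4. The other genes, all within 2-fold, also crossed 0. Btg1 ran from -1.54 to 1.00, Klf4 from -1.81 to 0.82 and Zfp36 from -2.11 to 0.86. Klf2 ran from -0.73 to 0.64, Zfp36l1 from -0.67 to 0.22 and Zfp36l2 from -0.53 to 1.68. Among values past 2-fold at 4 months, Btg1 changed sign to 0.14 in 4 pairs of cells matched on genes detected. Klf4 changed sign to 0.52 with Mki67 alone, and Klf6 stayed under the median gene in all 13 alternatives. The genes within 2-fold at 4 months also crossed 0. Btg2 ran from -2.08 (the matched pairs) to 1.09, Klf2 from -1.15 to 3.60 and Zfp36 from -0.63 to 0.45. Zfp36l1 ran from -0.96 to 0.97 and Zfp36l2 from -1.01 to 0.58. The causes were not tested. The 3 genes whose intervals of shares did not overlap became 2, Klf2 and Zfp36l1, at TPM above 0 or with no cell filter. No paired analysis was possible because each sample is 1 cell, a shared number in the titles names no animal, and no result comes from a test.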
